A study of Mus musculus with 6 samples.

Results

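Disomic neurospheres served as the reference in a study of Ts1Cje mice, a partial trisomy model of Down syndrome, and 3 of its 6 arrays were made from them. Members were chosen by genotype label alone. The arrays show what adult subventricular zone cells transcribed after growth as neurospheres without the trisomy, and no comparison between genotypes was made. The mice were disomic female littermates on the C57BL/6 background, bred by crossing Ts1Cje males with C57BL/6 females, and they were 84 days old. Cells came from the subventricular zone along the lateral ventricles and grown for 7 days in a medium with epidermal growth factor, fibroblast growth factor 2, heparin, insulin, transferrin, putrescine, progesterone and selenite. Per the labels the 3 disomic cultures are biological replicates, and the study describes them as littermates of the Ts1Cje mice without stating whether each culture held the cells of 1 mouse.

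The subventricular zone lines the lateral ventricles and keeps dividing stem cells throughout adult life. These glia-like stem cells give rise to rapidly dividing transit-amplifying cells, which in the animal produce neuroblasts that migrate to the olfactory bulb, and some oligodendrocytes. In a neurosphere culture the dissociated cells float and divide under epidermal growth factor and fibroblast growth factor 2, so that each sphere holds stem cells, progenitors and some of their more mature progeny, while most neurons and other mature cells of the tissue are lost. An array of whole spheres gives 1 average per culture, in which fewer cells of a type and less RNA per cell cannot be told apart.

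Every value is a log2 fluorescence intensity of a probe set, a group of short probes for 1 transcript, as the authors made it with the gcRMA algorithm. Without control probe sets, the values of the 3 disomic arrays ran from 2.23 to 15.89. Of the 45037 probe sets, 12546 stood at the lowest value on all 3 of these arrays. Among the probe sets, 34945 carry a single gene symbol and name 18193 genes, and the brightest of a gene's probe sets stands for it. The 3 arrays correlated across all probe sets with r between 0.9915 and 0.9951, over probe sets that are not independent of each other. The female-specific transcript Xist was at 12.33, 12.14 and 12.56 on replicates 1, 2 and 3, and the Y-linked Kdm5d, Eif2s3y and Uty stood at 2.23 to 2.25 on each array.

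Each gene was placed by its mean over the 3 arrays. A mean above 10 was found for 2158 genes (11.9% of 18193), a mean from 5 to 10 for 6767 (37.2%) and a mean below 5 for 9268 (50.9%). All 3 arrays fell into the same class for 89.9% of the genes above 10, 93.1% of those from 5 to 10 and 97.7% of those below 5. The boundaries cut through a continuous range, since 656 genes had a mean from 9.5 to 10 and 562 from 10 to 10.5. Ids (10.001) and Sp1 (10.002) lay just above the upper boundary and Alyref (9.999) just below it, while Borcs8 (5.004) lay just above the lower one and Samd9l (5.0) just below it. With limma, an adjusted p under 0.05 for a mean above 5 was reached by 8422 genes (46.3%), for a mean below 5 by 8856 (48.7%) and for a mean above 10 by 1733 (9.53%). The count below 5 was 3410 when only probe sets that varied were fitted, which leaves out the constant ones. Without adjustment the counts were 8442, 8870 and 1739. Of the 1076 genes on the lists described here, 215 were above 10, of which 178 passed the test for a mean above 10. Below 5 were 567, of which 542 passed the test for a mean below 5. Of all 9268 genes below 5, 5539 had the same value on all 3 arrays, so their passing says nothing about spread between cultures. Probe sets differ in how well they bind, so a class says where a probe set's signal lies and does not rank 1 gene's transcript against another's. A value below 5 is likewise a value of a probe set and not a proof that the transcript is missing. Of the 1694 genes above 10 with several probe sets, 890 (52.5%) had another probe set below 5.

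Promoter sequence differed between the classes, in a feature the arrays did not use. The promoters shown here, from RefSeq on build GRCm38.p6, run from 250 bases before to 50 bases after the transcription start on the plus strand, and capitals mark CpG dinucleotides. Sox2 and Olig2 stand for genes above 10 with many CpGs, Fabp7 for a gene above 10 with fewer, and Alb, the serum albumin gene of liver, for a tissue-specific gene whose signal was 2.61 on each array. The windows are chr3:34649745-34650044 for Sox2, chr16:91225300-91225599 for Olig2, chr10:57784673-57784972 for Fabp7 and chr5:90460620-90460919 for Alb.
Sox2: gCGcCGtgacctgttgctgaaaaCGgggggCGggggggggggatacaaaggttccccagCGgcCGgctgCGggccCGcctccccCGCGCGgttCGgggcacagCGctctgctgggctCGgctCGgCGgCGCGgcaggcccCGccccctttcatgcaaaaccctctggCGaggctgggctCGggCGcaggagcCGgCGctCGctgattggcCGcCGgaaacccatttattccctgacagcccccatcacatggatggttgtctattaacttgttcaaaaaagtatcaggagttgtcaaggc
Olig2: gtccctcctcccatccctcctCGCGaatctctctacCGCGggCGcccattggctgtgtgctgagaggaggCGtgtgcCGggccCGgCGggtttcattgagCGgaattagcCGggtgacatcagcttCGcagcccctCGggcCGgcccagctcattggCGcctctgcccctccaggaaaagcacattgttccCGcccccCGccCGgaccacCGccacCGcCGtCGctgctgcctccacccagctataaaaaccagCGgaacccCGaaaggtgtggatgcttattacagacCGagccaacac
Fabp7: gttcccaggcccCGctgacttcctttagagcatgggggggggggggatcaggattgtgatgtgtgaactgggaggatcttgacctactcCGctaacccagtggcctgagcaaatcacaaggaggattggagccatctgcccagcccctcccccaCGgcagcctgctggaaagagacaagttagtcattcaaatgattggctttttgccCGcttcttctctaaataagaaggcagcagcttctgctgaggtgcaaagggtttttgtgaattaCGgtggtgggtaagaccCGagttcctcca
Alb: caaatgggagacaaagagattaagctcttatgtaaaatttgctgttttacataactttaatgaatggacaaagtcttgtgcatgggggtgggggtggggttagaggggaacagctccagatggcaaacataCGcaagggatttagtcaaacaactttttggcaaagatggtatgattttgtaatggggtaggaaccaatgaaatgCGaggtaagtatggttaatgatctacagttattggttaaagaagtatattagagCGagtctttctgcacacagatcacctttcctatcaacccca
The window held 27 CpGs in Sox2, 25 in Olig2, 6 in Fabp7 and 3 in Alb. Nes and Egfr, whose windows held 18 and 15, lay between these. The window of Ckm, a muscle gene whose mean was 2.23, held 7, more than that of Fabp7. Across 18109 promoters of 14452 genes with a level, the median number of CpGs was 23 above 10 (quartiles 16 and 31), 21 from 5 to 10 and 8 below 5 (quartiles 3 and 18). At least 15 CpGs were present in 77.5% of promoters above 10, 71.7% from 5 to 10 and 32.4% below 5, against 53.7% of all promoters with a level. The step thus lay at 5 rather than at 10. The motif TATAAA, read on both strands, occurred in 7.32%, 6.53% and 13.1% of the promoters of the classes in the same order and in 9.77% overall. GGGCGG, which contains a CpG itself, occurred in 66.0%, 64.8% and 38.3%, and CCAAT, which contains none, in 38.0%, 38.1% and 36.6%. By list, the 29 promoters of genes typical of other organs had a median of 3 CpGs and none reached 15. Among cell division genes 79.4% of the promoters did. Other lists went against the classes. Wnt ligands and antagonists, with 85.2% of genes below 5, had at least 15 CpGs in 73.9% of 23 promoters. Midbrain, hindbrain and spinal cord factors, with 97.3% below 5, had them in 54.5% of 22. Mature astrocyte genes, with 68.8% above 10, had them in 27.8% of 18. These counts are a description, since promoters of 1 gene overlap and neighbouring genes can share one.

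Of the 5 markers that define these cultures, 4 were above 10 on every array and Nes lay close to 10. Fabp7, a brain fatty acid-binding protein of radial glia, was at 14.62, 14.42 and 14.82 on replicates 1, 2 and 3, a mean of 14.62 ± 0.20 (SD, n = 3, as for all following means). Sox2, the transcription factor that maintains neural stem cells, was at 13.09, 13.12 and 13.44 (13.22 ± 0.19). Olig2, a transcription factor of transit-amplifying cells and of the oligodendrocyte lineage, was at 12.44, 12.54 and 12.66 (12.55 ± 0.11). For each of these genes the 3 arrays lay within 0.40 of each other, and replicate 3 was the highest. Egfr, the receptor for the growth factor that drives these cultures, was at 11.47, 11.54 and 11.78 (11.60 ± 0.16). Nes, the intermediate filament nestin, was the one marker short of 10, at 9.87, 9.56 and 10.22 (9.88 ± 0.33). In limma the mean of Sox2, Olig2, Fabp7 and Egfr exceeded 10, with adjusted p = 0.000649, 0.000317, 0.000318 and 0.00189. The 95% interval of the Nes mean, 9.2 to 10.56, held 10 (adjusted p = 0.571 against 10, 0.000857 against 5). Sox2, Olig2 and Fabp7 have 1 probe set each. The other probe sets of Nes averaged 7.41 and 5.05, and those of Egfr ran from 10.35 down to 3 at 2.23. All 5 markers were thus above 5 on each of the 3 arrays, and Nes was above 10 on replicate 3 alone. The lists were chosen with earlier results of these data known, so these levels describe the cultures and do not test their label.

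**Figure D1:**
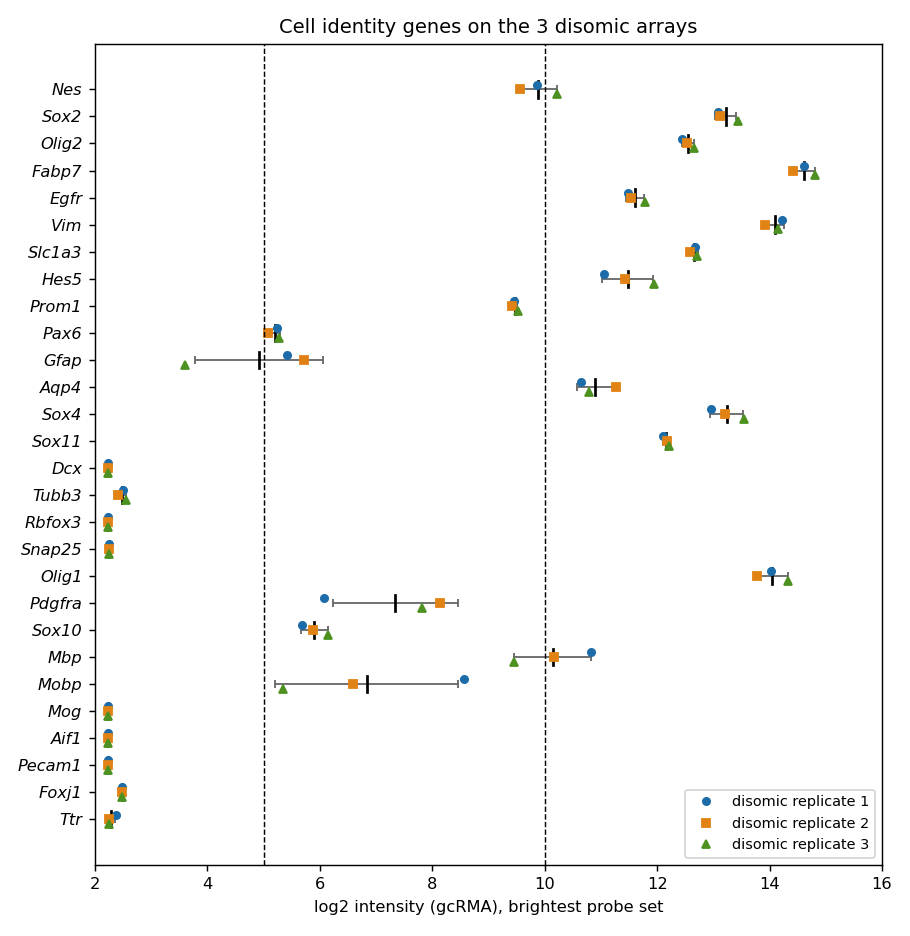
Log2 intensity of 28 cell identity genes on the 3 disomic arrays, with each gene's brightest probe set. Points are arrays, the black tick is the mean of 3 arrays, the grey bar is 1 SD to either side and dashed lines mark 5 and 10. Fabp7 at 14.62 and Sox2 at 13.22 lie far right with little spread, Dcx and Rbfox3 at 2.23 lie at the left edge, and Gfap, Pdgfra and Mobp spread most.

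Transcription factors of neural stem cells and progenitors were all above 5. Of 29 measured, 14 were above 10, 15 from 5 to 10 and 0 below 5, where 50.9% of all genes lie below 5. Beside Sox2 and Olig2, those above 10 included Olig1 (14.05 ± 0.28), Zeb1 (12.85 ± 0.11), Nfia (12.43 ± 0.28), a factor of gliogenesis, and Hes5 (11.47 ± 0.45), a repressor downstream of Notch. Sox9, which specifies glia-forming stem cells, was at 10.63 ± 0.14. The low end held factors that are also central to stem cells of this zone. Pax6 was at 5.24, 5.08 and 5.27 (adjusted p = 0.0569 against 5 in limma), Nr2e1, the orphan receptor Tlx, at 6.30 ± 0.10 and Hes1 at 7.39 ± 0.35. Among the Id proteins, inhibitors of basic helix-loop-helix factors, Id2 was at 11.39 ± 0.36, Id4 at 9.06 ± 0.39, Id3 at 7.42 ± 0.12 and Id1 at 5.51 ± 0.40. Sall3 was the most variable of the list, at 8.33, 8.68 and 10.29.

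Structural and surface proteins of neural stem cells and radial glia followed the same course, with 14 of 24 above 10, 7 from 5 to 10 and 3 below 5. Vim, the intermediate filament vimentin, was at 14.10 ± 0.16, Fabp5 at 13.75 ± 0.13, the receptor phosphatase Ptprz1 at 13.48 ± 0.20 and the glutamate transporter Slc1a3 at 12.65 ± 0.07. Prom1, the surface antigen CD133, was steady at 9.46 ± 0.05. The extracellular matrix glycoprotein Tnc was at 10.05 ± 0.66, and Msi2, an RNA-binding protein, at 8.68, 8.88 and 10.26. The 3 genes below 5 were Gfap, Hopx (2.49 ± 0.14) and Fut4, a fucosyltransferase of the LeX antigen (2.36). Fut9, another fucosyltransferase, is not on this list, and its mean lay just below 10. The level of Fut4 therefore does not show whether the cultures could make the antigen. Gfap, the filament protein of astrocytes and adult stem cells, was at 5.42, 5.72 and 3.61, so that 2 cultures were above 5 and replicate 3 was below, and its mean of 4.92 ± 1.14 had an adjusted p of 0.904 against 5 in limma.

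Genes of mature astrocytes split into opposite classes with none between. Of 16, 11 were above 10 and 5 below 5. The high ones were the gap junction protein Gja1 (13.24 ± 0.22), Apoe (13.24 ± 0.21), Aldoc (12.82 ± 0.20), the glutamine synthetase Glul (12.75 ± 0.08), Aldh1l1 (12.44 ± 0.33), the glutamate transporter Slc1a2 (11.02 ± 0.19), the potassium channel Kcnj10 (10.91 ± 0.15), the water channel Aqp4 (10.90 ± 0.32), Acsbg1, Clu and Fgfr3. Beside Gfap, those below 5 were S100b (3.01 ± 0.15), the gap junction genes Gjb2 (2.84 ± 0.18) and Gjb6 (2.50 ± 0.08), and Agt (2.54 ± 0.02), the angiotensinogen gene. Many of the high genes of this list are also known from radial glia and adult neural stem cells, so the list does not separate astrocytes from them.

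Genes of neuroblasts and immature neurons were spread over the classes much as all genes were, and most genes of mature neurons were below 5. Of 21 genes of neuroblasts and immature neurons, 4 were above 10, 7 from 5 to 10 and 10 (47.6%) below 5, against 50.9% of all genes. Above 10 lay Stmn1 (13.25 ± 0.12), Sox4 (13.24 ± 0.30), Sox11 (12.16 ± 0.06) and Dpysl3 (10.93 ± 0.32), of which Stmn1 is also known from other dividing cells. From 5 to 10 lay Ncam1 (8.08 ± 0.52), Crmp1 (7.91 ± 0.14), Gap43 (7.71 ± 0.38), the neuronal RNA-binding proteins Elavl3 (7.59 ± 0.35) and Elavl4 (6.29 ± 0.68), Nrxn3 (6.07 ± 0.38) and Insm1 (5.09 ± 0.50). Dcx, the microtubule protein that marks migrating neuroblasts, was at 2.23 on every array in all 4 of its probe sets. Tubb3, the neuronal tubulin, was at 2.50, 2.40 and 2.55, and Neurod1 at 3.15 ± 0.74. Of 27 mature neuron genes, 22 were below 5. Rbfox3, Nefl and the vesicular glutamate transporters Slc17a6 and Slc17a7 averaged 2.23 and Snap25 2.24. The exceptions above 10 were Map2, a microtubule protein of dendrites, at 12.45, 12.45 and 12.92, and the potassium channel Kcnc1 (10.39 ± 0.29). Gad1 and Gad2, the enzymes that make GABA, were at 9.70 ± 0.60 and 5.79 ± 0.11, while Slc32a1, which loads GABA into vesicles, was at 2.51.

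Oligodendrocyte precursor genes were largely above 5, with 4 of 12 above 10, 5 from 5 to 10 and 3 below. Beside Olig1 and Olig2, Lhfpl3 (10.38 ± 0.89) and Cspg5 (10.37 ± 0.06) were above 10. Cspg4, the NG2 proteoglycan, was at 9.63 ± 0.19, and Sox10 at 5.68, 5.88 and 6.14. Pdgfra, the receptor that precursors need for growth, was at 6.07, 8.14 and 7.81, with replicate 1 well below the other two. Of 13 genes of myelinating oligodendrocytes, 9 were below 5, among them Mog (2.23), Mag (3.79 ± 0.01) and Myrf (3.27 ± 0.01), the factor that switches on myelin genes. Cnp, a phosphodiesterase already made by precursors, was at 12.03 ± 0.13. Mbp, myelin basic protein, was at 10.81, 10.16 and 9.45, and Mobp at 8.57, 6.58 and 5.35. Both of these were highest on replicate 1 and lowest on replicate 3, and their spread exceeded the median SD of 0.19 among all genes above 5.

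Genes typical of other cells, whether of the region, of blood, of the neural crest, of germ cells or of other organs, were nearly all below 5. Of 132 measured, 120 (90.9%) were below 5, 11 from 5 to 10 and 1 above 10, against 50.9%, 37.2% and 11.9% of all genes. All 12 endothelial genes, 12 ependymal genes, 8 choroid plexus genes and 9 blood cell genes were below 5. The defining markers stood at or close to the floor, with Pecam1, Cdh5, Aif1, P2ry12, Tmem119, Ptprc and Col1a1 at 2.23, Pdgfrb and Trem2 at 2.24, Ttr at 2.28 and Foxj1 at 2.48. Of 17 microglial genes Ctss, a lysosomal protease, was the one above 5, at 6.03, 6.54 and 4.57. Of 10 pericyte and smooth muscle genes, Cspg4, Acta2 (7.66 ± 0.35) and Notch3 (6.69 ± 0.18) were from 5 to 10, of which Cspg4 is on the precursor list too. The fibroblast list had Thy1 (9.35 ± 0.47) and Pdgfra above 5, which are also on the neuron and the precursor lists. Its matrix genes Dcn, at 5.25, 4.54 and 2.47, and Col3a1, at 4.38, 4.99 and 2.47, were lowest on replicate 3, as was Ctss. Their part in the differences between the arrays was not tested. Of the neural crest and Schwann cell list, Pmp22 (10.46 ± 0.41) was the single gene above 10 of all these lists, and Klf4 (6.60 ± 0.74) the one pluripotency or germ cell gene of 14 above 5. Of 29 genes of other organs, Krt10 (7.36 ± 0.16) alone was above 5.

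Factors that set position along the nervous system were mostly below 5, nearly without exception for those of the hindbrain and spinal cord. Of 37 factors of midbrain, hindbrain and spinal cord, 36 were below 5, none of them with a mean over the 2.84 of Irx1, and among them were all but 1 of the Hox genes measured. The exception was Hoxa5, at 7.74, 7.03 and 6.80, whose other probe set was at 2.23. Of 21 telencephalic factors, 9 were above 5 and 12 (57.1%) below, not far from the 50.9% of all genes. Meis2 (12.20 ± 0.23), a factor of the lateral ganglionic eminence and striatum, and Nr2f1 (10.21 ± 0.27) were above 10, and Lhx2 (9.71 ± 0.23), Meis1 (9.07 ± 0.09), Emx2 (8.89 ± 0.05), Gli3 (8.03 ± 0.01), Six3 (7.05 ± 0.25) and Otx1 (5.56 ± 0.23) lay between. Emx2 and Lhx2 are known from the cortical wall and Six3 from the striatal side, and these genes were above 5 in each culture. Other regional factors of the list were below 5, among them Emx1 (2.40 ± 0.16), Gsx2 (3.96 ± 0.44), Gsx1 (2.23) and Sp8 (2.28 ± 0.06). The Dlx factors of interneuron production were below 5, with Dlx2 at 4.68, 4.61 and 4.61, Dlx1 at 3.46 ± 0.52, and Dlx5 and Dlx6 at 2.23. Zic1 was at 4.49, 6.66 and 3.90, a spread of 1.45.

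**Figure D2:**
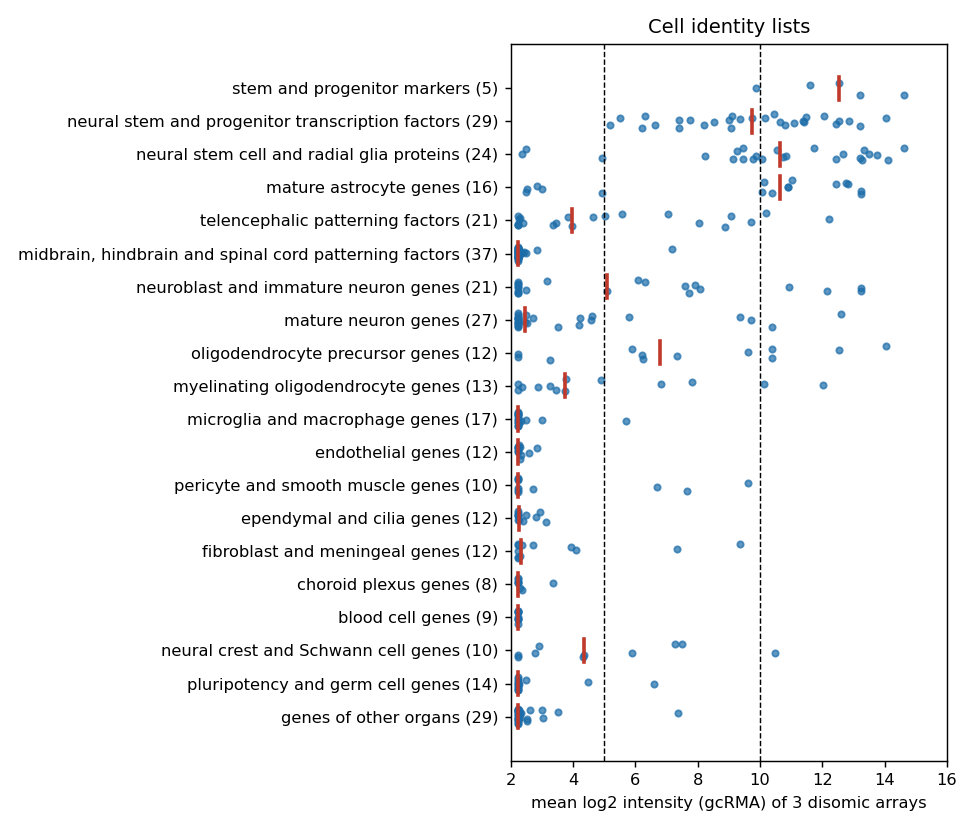
Mean log2 intensity over 3 disomic arrays of every measured gene on 20 lists of cell identity and of other cells. Each point is a gene, the red line is the list's median, the number of genes stands in brackets and dashed lines mark 5 and 10. The median is 12.55 for the markers and 10.64 for astrocyte genes, and between 2.23 and 2.34 for microglial, endothelial, pericyte, ependymal, fibroblast, choroid plexus and blood cell genes.

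Growth factor genes were mostly below 5, and receptor genes were spread over the classes much as all genes were. Of 117 measured ligands and their binding proteins, 7 (6.0%) were above 10, 22 from 5 to 10 and 88 (75.2%) below 5. Among 359 receptors and signalling partners, 42 (11.7%) were above 10, 111 from 5 to 10 and 206 (57.4%) below 5, close to the shares among all genes (11.9%, 37.2% and 50.9%). The lists differ in length and in probe sets, so these shares are a description.

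The genes of both growth factors of the medium were near the lowest value, while receptors for both were above 5. Egf was at 2.30 ± 0.05 and Fgf2 at 2.23 on each array, each on its only probe set. Of 10 EGF family ligands, only Hbegf, at 9.28, 8.43 and 7.73, and Tgfa, at 5.91, 6.59 and 6.09, were above 5, and both bind Egfr. Of the 4 receptors of the family Egfr was the one above 5, with Erbb2 at 4.17 ± 0.39, Erbb3 at 2.92 ± 0.33 and Erbb4 at 2.37 ± 0.12. Of 22 FGF ligands, 19 were below 5, and those above were Fgf1 (6.89, 5.99 and 6.45) and the intracellular relatives Fgf13 (6.90 ± 0.39) and Fgf14 (6.74 ± 0.93). Fgfr3 was at 9.87, 9.95 and 10.39, Fgfr2 at 8.86, 8.37 and 8.67, Fgfr1 at 8.17, 7.78 and 8.67, and Fgfr4 at 2.24 ± 0.02. Fgfrl1, a receptor without a kinase domain, was at 10.84 ± 0.15. The heparan sulphate proteoglycans that hold FGF at the surface, Sdc4 (10.48 ± 0.50), Sdc2 (9.89 ± 0.31), Sdc3 (9.68 ± 0.31) and Gpc1 (9.59 ± 0.29), lay near or above 10.

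Early targets and feedback inhibitors of receptor kinases were above 10 for 9 of 20 and below 5 for 3. Ccnd1 (12.47 ± 0.37), the cyclin of the G1 phase, Etv5 (12.09 ± 0.20), the phosphatase Dusp6 (11.87 ± 0.21), Lrig1 (12.29 ± 0.02), which restrains EGF receptors, and Spry1 (10.11 ± 0.16), an inhibitor of the Ras pathway, were among the high ones. Fos was at 11.83, 12.31 and 10.63 and Egr1 at 10.35, 10.90 and 9.40. Both immediate early genes were highest on replicate 2 and lowest on replicate 3, unlike Dusp6 and Etv5, whose 3 values lay within 0.42 of each other.

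The receptors for the insulin of the medium were above 5, and the genes of their ligands were below. Insr was at 10.18, 9.98 and 10.09, Igf1r at 7.89, 8.40 and 8.53, and the adaptor Irs1 at 11.12 ± 0.10. Igf1 (3.76 ± 0.17), Igf2 (3.21 ± 0.01) and Ins2 (2.23) were below 5. The high members of the ligand list were binding proteins, which hold IGFs outside the cell. Igfbp3 was at 13.86, 13.75 and 13.19, Igfbp2 at 12.42, 11.85 and 11.94, and Igfbp4 at 10.57 ± 0.47.

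Other growth factor families gave single genes above 10. Ptn, the heparin-binding factor pleiotrophin and a ligand of Ptprz1, was at 14.06, 13.80 and 14.10, and its relative Mdk at 7.35 ± 0.13. Kitl, stem cell factor, was at 10.59 ± 0.11 with its receptor Kit at 2.64 ± 0.37. Pros1, protein S, was at 10.18 ± 0.20, with its receptors Tyro3 (7.34 ± 0.43), Axl (6.46 ± 0.03) and Mertk (5.86 ± 0.47) from 5 to 10. Vegfa was at 3.88 ± 0.43, and Kdr and Flt1, its receptors, were at 2.31 and 2.32. Ddr1, a collagen receptor kinase, had the highest mean of any receptor, 14.91 ± 0.10, though its 8 probe sets ran from 3.62 to 14.91. Of the neurotrophin receptors Ntrk2 was at 11.97, 11.58 and 11.87, with Bdnf at 2.25 and Ntf5 at 2.25. Lifr (10.07 ± 0.35) and its partner Il6st (9.14 ± 0.26) were above 5, with Lif at 2.56 ± 0.40.

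Most receptors of the bone morphogenetic protein and Wnt families were above 5, and most of their ligands were below, where 50.9% of all genes are below 5. In the first family 8 of 12 receptors were above 5, led by Bmpr2 (12.34 ± 0.06) and Bmpr1a (10.77 ± 0.05), against 4 of 20 ligands and antagonists, with Tgfb2 at 9.32 ± 0.13 and Bmp4 and Nog at 2.23. Of 17 Wnt receptors 12 were above 5, with Fzd3 at 11.37 ± 0.17, against 4 of 27 ligands and antagonists. These were Wnt5a, at 10.41, 11.17 and 10.91, Wnt7a (9.35 ± 0.21), Wnt7b (9.21 ± 0.13) and the antagonist Sfrp1 (6.61 ± 0.37). Notch1 was at 11.62, 11.89 and 12.34, Dll1, its ligand, at 8.31, 8.72 and 9.25, and Hes5 at 11.06, 11.42 and 11.95. All 3 of these Notch pathway genes were lowest on replicate 1 and highest on replicate 3, a difference of 0.72 to 0.94. Other genes that Notch is known to act on did not share this order, with Hey1 at 10.87, 10.76 and 10.79, Hes1 at 7.27, 7.13 and 7.79 and Nrarp at 8.97, 9.85 and 9.53. In the hedgehog pathway the receptor Ptch1, itself a target, was at 11.28, 11.47 and 12.01, Smo at 8.67 ± 0.08, and the coreceptors Cdon and Gas1 at 11.76 ± 0.17 and 11.05 ± 0.11. Gli1, the other standard target, was at 2.23 on its only probe set, Shh at 5.60 ± 0.47 and Dhh at 10.39, 9.08 and 9.02.

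**Figure D3:**
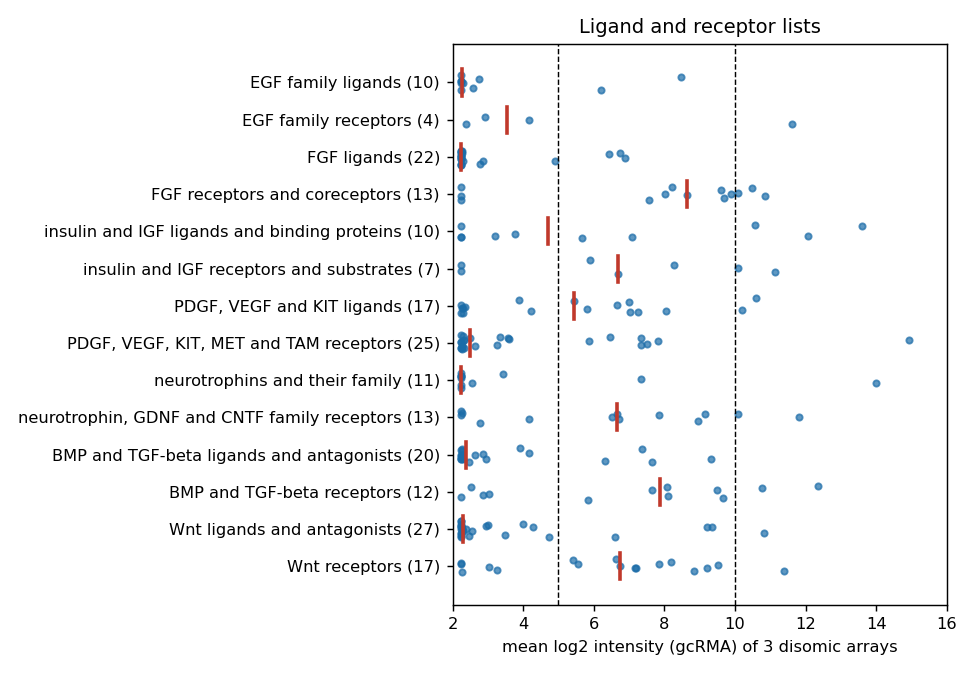
Mean log2 intensity over 3 disomic arrays of each measured gene on 14 lists of ligands and of their receptors. Points are genes, the red line is the list's median, the number of genes stands in brackets and dashed lines mark 5 and 10. In the FGF, BMP and TGF-beta and Wnt families the median of the receptors (8.63, 7.87 and 6.73) lies right of that of the ligands (2.24, 2.39 and 2.28).

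Receptors for neurotransmitters were mostly below 5, with exceptions known from glia and precursors. Of 16 ionotropic glutamate receptor genes 13 were below 5, and Gria3 (9.08 ± 0.15) and Gria2, at 7.08, 8.84 and 9.25, were the highest. The metabotropic receptors Grm5, at 11.03, 11.38 and 11.07, and Grm3, at 10.44, 10.51 and 10.64, were above 10 and the other 4 of 6 below 5. For GABA and glycine, Glrb (10.21 ± 0.34), Gabrg1 (9.71 ± 0.20) and Gabbr1 (9.27 ± 0.31) were above 5 and 11 of 14 below. Of 17 acetylcholine receptor genes Chrna4 (5.95 ± 0.23) and of 20 monoamine receptor genes Hrh1 (5.59 ± 0.17) were the ones above 5.

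Among 35 receptors for purines, peptides and lipids, 4 (11.4%) were above 10 and 18 (51.4%) below 5, about as among all genes (11.9% and 50.9%). Ednrb, the endothelin receptor of astroglia, was at 13.26, 13.30 and 13.44, and F2r, the thrombin receptor, at 13.35, 13.16 and 13.21. The adhesion receptor Adgrg1 was at 10.84 ± 0.40 and Adcyap1r1, the receptor of the peptide PACAP, at 10.57 ± 0.37. The medium holds progesterone, and Pgr, its nuclear receptor, was at 2.23 on the brightest of its 3 probe sets, while the membrane-associated Pgrmc1 and Pgrmc2 were at 10.02 ± 0.11 and 9.31 ± 0.16. Of 37 nuclear receptors and related genes, 3 were above 10 and 22 below 5. Nr1d2, a repressor of the circadian clock, was at 11.21 ± 0.20 and Nr3c1, the glucocorticoid receptor, at 10.19 ± 0.24. Thra (9.44 ± 0.20) was above 5 and Thrb (2.23) below, both thyroid hormone receptors, and Esr1 and Rara were at 2.23.

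None of 32 cytokine and chemokine receptors was above 10 and 9 were from 5 to 10, led by Tnfrsf1a (8.92 ± 0.33), Ackr3 (8.91 ± 0.77) and Tlr3 (8.63 ± 0.09). Of 27 guidance receptors Neo1 (12.31 ± 0.17) was the one above 10. Subunits of laminin and vitronectin receptors were above 10 on the integrin list, with Itgav (12.12 ± 0.10), Itgb8 (11.05, 12.02 and 12.11), Itgb1 (10.83 ± 0.19) and Itga6 (10.22 ± 0.37), beside Dag1, dystroglycan (11.70 ± 0.09). Of its 24 genes 16 were below 5, including the leukocyte integrins Itgal, Itgam and Itgb2 at 2.23.

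Metabolic genes were largely above 5, and many were above 10. Of 266 measured, 107 (40.2%) were above 10, 90 from 5 to 10 and 69 (25.9%) below 5, against 11.9%, 37.2% and 50.9% of all genes. Of 27 genes of pyruvate dehydrogenase and the citric acid cycle, 21 were above 10, led by Cs, citrate synthase (14.17 ± 0.09), and Mdh2 (13.69 ± 0.09), while the testis form Pdha2 was at 2.23. In the respiratory chain the general subunits Cox4i1 (12.80 ± 0.15), Cox6a1 (13.58 ± 0.06) and Cox7a2 (12.85 ± 0.10) were above 10. The lung form Cox4i2 (2.23) and the muscle forms Cox6a2 (2.81 ± 0.02) and Cox7a1 (4.05 ± 0.47) were below 5. Not all forms split this way, with the general Cox8a at 7.90 ± 0.11 and the testis form Cox6b2 at 6.20 ± 0.27. Slc25a4, the ADP/ATP carrier of heart and muscle, was at 13.85 ± 0.09. Ucp1, the uncoupling protein of brown fat, was at 2.23.

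Forms of 1 enzyme known from different tissues also fell into different classes in glycolysis. Of 31 genes 11 were above 10 and 13 below 5. A form known from other tissues was not always low, with the muscle phosphofructokinase Pfkm at 10.78 ± 0.05. The liver form Pfkl was at 8.32 ± 0.33 and the platelet form Pfkp at 8.59 ± 0.54. Hk1, the hexokinase of brain, was at 10.42, 9.99 and 10.12, Hk2 at 5.57, 5.09 and 4.65, and Hk3 at 2.23. Both lactate dehydrogenase subunits were above 10, with Ldha at 12.19, 11.86 and 12.05 and Ldhb at 13.13, 13.20 and 13.09, and the testis form Ldhc was at 2.24. Slc2a1, the general glucose transporter, was at 9.78 ± 0.26 and Slc2a3 at 7.98 ± 0.27, and Slc2a4, the insulin-regulated form, at 2.25. Pgk1 (13.72 ± 0.15), Pkm (12.76 ± 0.27) and Aldoc (12.82 ± 0.20) were above 10, and the liver kinase Pklr was at 2.24. The list's 18 genes above 5 averaged 0.21 above their own means on replicate 1, 0.12 below on replicate 2 and 0.09 below on replicate 3. Of gluconeogenesis, Pck1 (2.33 ± 0.07) and Fbp1 (2.23) were below 5 and the mitochondrial Pck2 at 8.73 ± 0.36. In the pentose phosphate pathway the transketolase Tkt was at 13.91 ± 0.15 and its relatives Tktl1 and Tktl2 at 2.23. Gapdh, Eno1 and G6pdx were not analysed here among these genes.

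Lipid genes were mostly above 5, with 15 of 19 in fatty acid synthesis and 24 of 27 in cholesterol metabolism. Scd2, the brain form of stearoyl-CoA desaturase, was at 14.17, 14.10 and 14.40, Scd1 at 12.52, 12.65 and 12.40, and Scd3 at 2.24. Acly, which makes cytosolic acetyl-CoA, was at 12.82 ± 0.08, Fasn at 8.48 ± 0.50, and of the acetyl-CoA carboxylases Acaca was at 7.76 ± 0.24 and Acacb at 2.23. All 14 genes of fatty acid oxidation and ketone use were above 5, led by Hadhb (13.58 ± 0.09) and Hadh (13.39 ± 0.09), and Oxct1, which lets cells burn ketone bodies, was at 12.92 ± 0.03. Of 27 cholesterol genes 12 were above 10 and 3 below 5. Hmgcs1, an early enzyme of the pathway, was at 14.35, 14.44 and 14.44, Idi1 at 12.51, 12.61 and 12.19, and Fdft1 at 11.72 ± 0.17. Those below 5 were Cyp7a1, the bile acid enzyme of liver, Cyp46a1, a neuronal cholesterol hydroxylase (3.12 ± 0.11), and Lrp2 (2.36 ± 0.03). The mean deviation of its 24 genes above 5 from their own means stayed between -0.01 and 0.02 on the 3 arrays, though single genes moved in both directions and their median SD was 0.18.

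Amino acid and one-carbon genes included several known from astroglia. Psat1 (12.37 ± 0.04) and Phgdh (12.05, 11.61 and 12.01) of serine synthesis and Glud1, glutamate dehydrogenase (13.84 ± 0.17), were above 10, as was Glul. The liver enzymes Mat1a (2.23), Bhmt (2.71) and Gnmt (2.50 ± 0.02) were below 5. So was Tyms, thymidylate synthase, at 3.21, 3.29 and 3.91 on the brightest of 4 probe sets. Of the urea cycle Cps1, Otc and Arg1 were at 2.23, while Ckb, the brain creatine kinase, was at 14.17, 13.60 and 14.03 and the muscle form Ckm at 2.23.

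Genes that handle the other supplements of the medium differed by supplement. Of 11 genes of iron uptake and storage, 5 (45.5%) were below 5, close to the 50.9% of all genes, among them Cp (4.52 ± 0.91), Tfr2 (2.46 ± 0.01) and Hamp (2.36 ± 0.10). For transferrin, the receptor Tfrc was at 12.45, 11.89 and 11.88 on its brightest probe set and at 2.78 and 2.26 on the others, and ferritin heavy chain Fth1 at 13.95, 13.60 and 13.38. Both were highest on replicate 1. The iron exporter Slc40a1 was at 2.23. Of 26 genes of selenoproteins and selenium use, 11 were above 10 (42.3%, against 11.9% of all genes) and 5 below 5 (19.2%, against 50.9%). Above 10 were, among others, Selenot (13.10 ± 0.11), Txnrd1 (11.50 ± 0.22) and the peroxidases Gpx4 (11.24 ± 0.31) and Gpx1 (10.33 ± 0.15). Dio2, which activates thyroid hormone in astroglia, was at 10.86, 9.60 and 9.79, and Dio1 at 2.23. Putrescine is a polyamine, and all 9 polyamine genes were above 5, where 50.9% of all genes are below, with Odc1, the enzyme that makes it, at 13.07, 13.03 and 13.02, and its inhibitor Oaz1 at 13.72 ± 0.02.

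**Figure D4:**
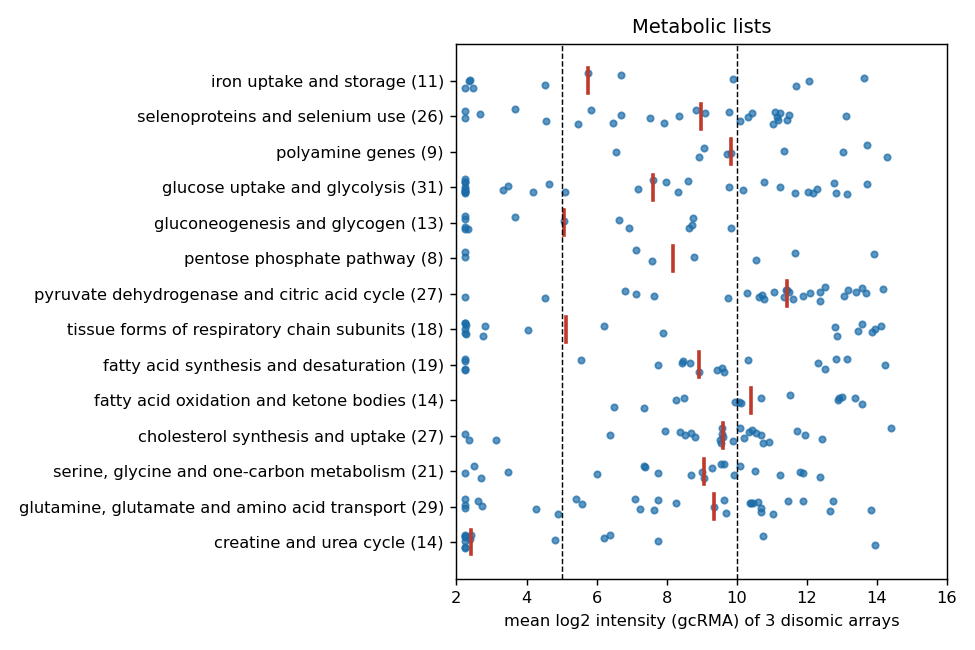
Mean log2 intensity over 3 disomic arrays of each measured gene on 14 metabolic lists. Points are genes, the red line is the list's median, the number of genes stands in brackets and dashed lines mark 5 and 10. The citric acid cycle list has the highest median, 11.43, and the creatine and urea cycle list the lowest, 2.40, and several lists have a second group of genes near 2.23.

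Cell division genes were above 5 in 35 of 37 cases, and 14 (37.8%) were above 10, against 11.9% of all genes. Rrm2, a ribonucleotide reductase subunit, was at 13.73 ± 0.17, Pcna, the sliding clamp of replication, at 12.32 ± 0.06, Mcm7 of the replicative helicase at 12.30 ± 0.22, and Mki67, the proliferation antigen, at 11.80, 11.54 and 12.09. Of the D cyclins Ccnd1 and Ccnd2 (11.69 ± 0.31) were above 10 and Ccnd3 was at 8.41 ± 0.23. Cdkn1a, the inhibitor p21, was at 13.42, 12.67 and 12.57, in the same class as the genes of division. The 2 genes below 5 were inhibitors too, Cdkn1c (2.58 ± 0.04) and Cdkn2a (2.23).

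The genes with the highest means were mixed between housekeeping and neural functions. The 15 highest ran from 15.26 for Hmgn1, a nucleosome-binding protein, to 14.34 for Rps20, and their SDs from 0.012 to 0.32. The group held ribosomal and translation genes (Rpl13a, Rps29, Rps20, Eef1a1), Cct6a of the chaperonin and Cfl1, an actin-severing protein, beside Akr1a1, Mtpn and Ndfip1. Fabp7, Gpm6b, a membrane protein of neural cells, Ddr1, Hmgcs1 and Dbi, the acyl-CoA-binding protein that is abundant in glia, stood among them. Of these 15 probe sets 8 carry the suffix that marks probes able to match other transcripts.

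The 3 cultures agreed closely in most genes and differed in a few. Among the 8925 genes above 5 the median SD was 0.19, 503 (5.64%) had an SD above 0.5 and 42 an SD above 1. Replicates 1 and 2 differed by more than 1 in 153 genes, 2 and 3 in 195, and 1 and 3 in 268. The largest SD was that of Nell2, a secreted neural protein, at 4.53, 7.54 and 8.70. Mmp3, a matrix protease, was at 8.68, 7.86 and 4.93, and Tgfbi, a matrix protein, at 5.95, 6.46 and 3.10. Both matrix genes were lowest on replicate 3, as were Dcn and Col3a1. The noncoding RNA Malat1 was at 9.62, 10.94 and 12.79, and each of its other 6 probe sets was highest on replicate 3 too. Another nuclear noncoding RNA, Miat, was at 5.93, 7.71 and 8.99, while Neat1, looked up after these values had been seen, was at 6.75, 6.28 and 6.27. Erdr1 (9.91, 9.19 and 12.32), Mid1 (8.31, 8.16 and 11.02), Zbed6, Gm3764 and Slc16a4 were also highest on replicate 3. Of the 15 genes of largest SD, 10 were highest on replicate 3, against 37.2% of genes with an SD above 0.5 and 29.5% of all genes above 5. The others of the 15 were Akap9, Prox1, Mobp, Zic1 and Syt4, of which the first pair was highest on replicate 3 and Syt4 lowest there, at 8.33, 9.20 and 6.45.

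Averaged over a list, the arrays differed most in genes of myelinating oligodendrocytes, among lists with at least 4 genes above 5. An average over few genes varies more than one over many, and list size was not allowed for. The deviation of an array is its value minus the gene's mean over the 3 arrays, and over all genes above 5 it averaged -0.002, 0.02 and -0.018. The 4 myelinating genes above 5 (Cnp, Mbp, Ugt8a and Mobp) deviated by 0.52, 0.11 and -0.62 on replicates 1, 2 and 3. Next came the 4 genes above 5 of the neural crest and Schwann cell list, at 0.10, 0.26 and -0.36. The average of the precursor genes was lowest on replicate 1, at -0.35, 0.16 and 0.19 over 9 genes. It rested largely on Pdgfra, Lhfpl3 (9.46, 11.22 and 10.46) and Cacng4 (5.37, 6.29 and 6.96). Olig1, Cspg5 and Nkx2-2 were not lowest on replicate 1, and Nkx2-2 (6.57, 6.44 and 5.76) was highest there. Cnp, at 11.90, 12.01 and 12.17, and Ugt8a, at 7.58, 8.48 and 7.34, did not follow the order of Mbp and Mobp. The 7 Notch genes were at -0.25, 0.05 and 0.20, the 29 stem cell transcription factors at -0.15, -0.05 and 0.19, and the 5 markers at -0.07, -0.14 and 0.21. Cell division genes differed less, at 0.11, -0.12 and 0.01 over 35 genes, and Wnt receptors least but for the cholesterol genes, at -0.02, 0.01 and 0.01 over 12. With 1 group of 3 arrays these differences have no test.

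**Figure D5:**
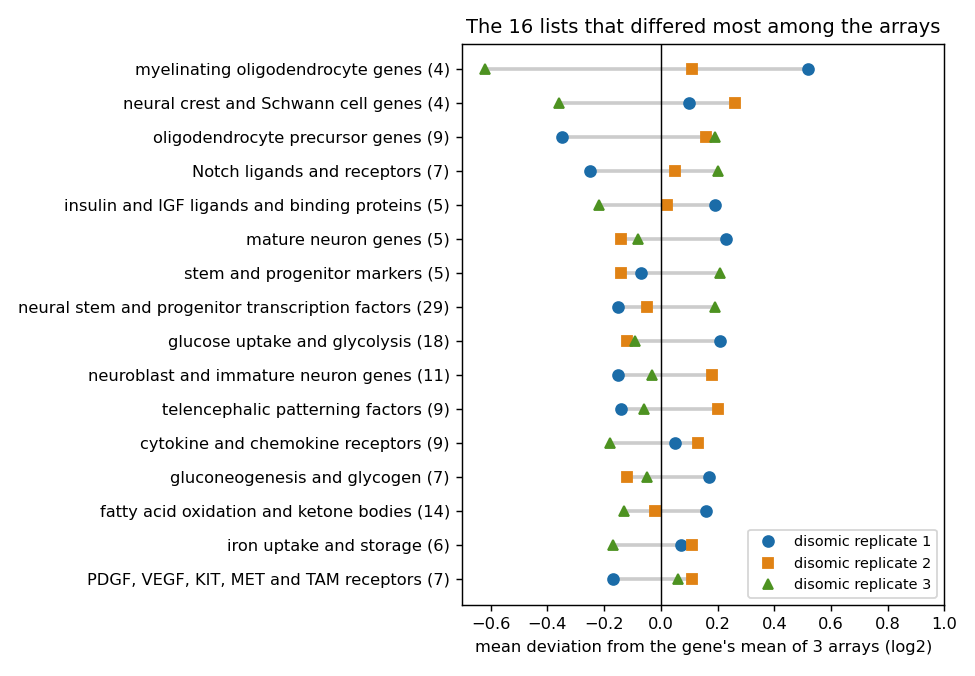
Mean deviation of each disomic array from the gene's mean of 3 arrays, in log2, for the 16 lists whose arrays differed most, with the number of genes above 5 in brackets. Each list has 1 point per array, and a grey line joins them. Myelinating oligodendrocyte genes span from 0.52 on replicate 1 to -0.62 on replicate 3, and oligodendrocyte precursor genes from -0.35 on replicate 1 to 0.19 on replicate 3.

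Control probe sets differed between the same arrays. The signal for 18S ribosomal RNA was 10.24, 11.32 and 11.74 on replicates 1, 2 and 3, with the same arrays lowest and highest as for Malat1, Nell2, Notch1, Dll1 and Hes5. For actin, the 3' probe set exceeded the 5' one, a measure of RNA length after labelling, by 1.53, 1.83 and 1.66, and for Gapdh by 2.28, 2.09 and 2.16. Spiked hybridization controls averaged 10.92, 10.33 and 11.36. Spiked poly-A controls averaged 6.48, 6.55 and 6.92, also lowest on replicate 1 and highest on replicate 3. The part of these in the differences between the cultures was not tested.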

How the data were processed

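RNA of 3 disomic and 3 Ts1Cje neurosphere cultures went through 2 cycles of target labelling and was hybridized to Affymetrix mouse genome arrays. The authors deposited log2 intensities, 1 per probe set, made with gcRMA, which corrects background by probe base composition, normalizes between arrays and summarizes probes, so that an array's own scale and background can no longer be seen. Its version is not given in the sources used here. All 6 arrays were normalized together, and the 3 disomic ones were used. Gene names come from the annotation of the platform, for probe sets with a single symbol. Other probe sets (932 with several symbols, 9160 with none) and 64 control probe sets were left out of gene counts.

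For each gene the brightest probe set by its mean over the 3 disomic arrays was kept, and the mean and SD were computed with Python 3.11.15, pandas 2.3.3 and numpy 2.4.6. The lower boundary of 5 is the level the study used for expressed probes. A mean was tested against 5 and against 10 with limma 3.58.1 in R 4.3.3 (an intercept fitted by lmFit to the value minus the boundary, eBayes without trend, two-sided), with Benjamini-Hochberg adjustment over all 45037 probe sets that are not controls. The prior degrees of freedom were 0.301, so little information was borrowed between probe sets, and the number of arrays limits the precision. The procedure was tested on simulated data. Figures were drawn with matplotlib 3.10.9.

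The genes described are the members of 62 lists, which name 1174 different genes, of which 1076 were measured. Described with them are the 15 genes of highest mean and the 15 of largest SD among genes above 5. Some genes are on several lists. The members and lists were chosen with earlier results of these data known. Promoters were matched by symbol to a RefSeq table on build GRCm38.p6, which holds 32851 promoters, and 14452 of the 18193 genes were found in it. Alternatives were the median of the arrays, other choices of probe set, cyclic loess on the deposited values, boundaries 1 lower and 1 higher, leaving out each array, a prior variance that follows intensity, the spread of all 6 arrays, and a fit of varying probe sets alone.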

Additional observations from a re-analysis of the deposited data

How the results depend on the processing

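The counts depend most on which probe set stands for a gene and on where the boundaries lie. Genes above 10 numbered 2158 with the brightest probe set, 867 with the mean of a gene's probe sets and 640 with the dimmest. Without probe sets of the suffixes _s_at, _x_at or _a_at they numbered 1403, among the 16591 genes that still had a probe set. Boundaries of 4 and 9 gave 3608, and those of 6 and 11 gave 1177. Genes from 5 to 10 numbered 4095 with the dimmest probe set. Genes past the limma test for a mean below 5 numbered 3410 when only varying probe sets were fitted, because constant probe sets are then not tested. Leaving out 1 array gave 2146 to 2188 genes above 10, 6757 to 6763 from 5 to 10 and 9248 to 9284 below 5, and 7603 to 7753, 8554 to 8587 and 1362 to 1374 genes past the tests above 5, below 5 and above 10. The list genes kept their class in 99.1% of cases with the median of the arrays, 82.9% with the mean of probe sets, 72.7% with the dimmest, 100% with cyclic loess and 98.9% to 99.2% without 1 array, and in none of these settings did a gene below 5 move above 10. With the dimmest probe set 76 list genes above 10 fell below 5. No paired analysis was possible because 1 group is described and no groups are compared. Signal over background cannot be judged from gcRMA values, in which 16748 probe sets (37.2%) were constant over the 3 arrays, and the cause of differences between probe sets of 1 gene was not tested.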
